A study of Mus musculus with 6 samples.

Results

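The cathepsins are proteases of endosomes and lysosomes, and cystatin C is a secreted inhibitor of those that cut with a cysteine. These genes were followed over 3 splenic dendritic cell populations that were sorted from wild-type mice: Ctsb, Ctsc, Ctsd, Ctse, Ctsh, Ctsl, Ctss, Ctsw, Ctsz and Cst3. They were taken by symbol, and each of the 10 had 1 probe set that named no other gene, among 19938 genes measured. The populations were CD24+ conventional type 1 dendritic cells (cDC1; CD172a-negative by the series title) and type 2 cells (cDC2) that carry CD172a, split into CD24+CD172a+ and CD24-CD172a+ cells. Each was hybridised to 2 Affymetrix arrays. All 3 groups are wild type with no treatment named, and age, sex and strain are not given in the sources used here. Nothing in the labels ties the paired arrays to separate mice, so every p-value measures only the spread between these arrays, which may be technical.

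In an antigen-presenting cell, cathepsins cut ingested proteins into peptides and trim the invariant chain that plugs the groove of MHC class II molecules. Cathepsin S does the last step of that trimming in dendritic cells and B cells. The enzymes are made as inactive precursors, are carried to the lysosome partly by mannose 6-phosphate receptors, and are held in check by cystatins, of which cystatin C is abundant in splenic dendritic cells.

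The 250 bases before the start of Ctsd, Ctsl, Ctss and Cst3 are shown because these genes stand for the patterns described next: Ctsd, Ctsl and Ctss were higher in both cDC2 populations than in cDC1, and Cst3 was lower. They come from RefSeq on mouse build GRCm38.p6, whose table held 6 of the 10 genes (Ctsc and Ctsz are the other two). The sequences run 5′ to 3′ on the gene's strand, and the windows are chr7:142387828-142388077 (minus strand), chr13:64370521-64370770 (minus strand), chr3:95526536-95526785 (plus strand) and chr2:148875513-148875762 (minus strand). Capitals mark letters found by searching both strands for CACGTG, the E-box bound by the TFEB family of lysosomal gene regulators, for GAAA followed after 2 bases of any kind by GAAA, the core of the interferon-stimulated response element, and for GAGGAA, a core bound by PU.1 and related factors. None of the marked letters overlapped.
Ctsd: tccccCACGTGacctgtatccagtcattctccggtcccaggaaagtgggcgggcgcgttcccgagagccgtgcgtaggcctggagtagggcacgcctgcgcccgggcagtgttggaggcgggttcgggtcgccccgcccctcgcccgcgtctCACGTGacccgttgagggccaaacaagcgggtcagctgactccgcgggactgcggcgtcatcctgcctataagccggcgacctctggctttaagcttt
Ctsl: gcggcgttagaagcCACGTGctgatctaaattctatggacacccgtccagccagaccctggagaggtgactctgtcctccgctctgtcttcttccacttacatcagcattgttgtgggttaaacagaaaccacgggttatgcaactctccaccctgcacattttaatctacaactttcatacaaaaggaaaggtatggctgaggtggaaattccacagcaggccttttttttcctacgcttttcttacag
Ctss: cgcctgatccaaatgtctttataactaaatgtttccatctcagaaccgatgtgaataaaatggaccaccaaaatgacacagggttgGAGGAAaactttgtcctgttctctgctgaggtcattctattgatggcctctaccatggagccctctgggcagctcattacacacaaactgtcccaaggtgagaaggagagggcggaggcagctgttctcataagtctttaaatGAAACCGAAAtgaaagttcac
Cst3: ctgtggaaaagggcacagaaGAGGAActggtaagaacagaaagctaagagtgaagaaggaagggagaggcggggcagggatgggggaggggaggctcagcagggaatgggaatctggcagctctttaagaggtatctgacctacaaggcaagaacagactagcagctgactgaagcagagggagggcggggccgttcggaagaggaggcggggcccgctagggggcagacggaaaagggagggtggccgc

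CACGTG stood in 2 places before Ctsd (245 and 98 bases before the start) and in 1 before Ctsl (236 bases), and in 6.02% of all 32851 windows of this length. The paired GAAA core stood 21 bases before Ctss and in 2.98% of all windows. GAGGAA is common, in 23.3% of all windows, and stood once before Ctss and once before Cst3. In the windows not printed, GAGGAA stood 196 and 149 bases before Ctsc, and Ctsz held no match of any kind searched. These matches describe the letters and were not measured as binding.

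In what follows, levels are log2 of the array intensity, with the SD of 2 arrays, and differences are in log2 units with their standard error. A difference is called when limma's p, adjusted by Benjamini and Hochberg over all 19938 genes, is under 0.05. Where an array of a compared group was left out, the 1 array left was assumed to vary like the other groups, so a call kept there shows only that it did not rest on the array left out. A call lost there can come from the larger standard error of fewer arrays, and does not show that it rested on the array left out. The level of 1 gene cannot be set against that of another, since each probe set has its own brightness. RNA amounts per cell were not measured, so fewer expressing cells and less RNA per cell cannot be told apart.

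Array medians ran from 29.5 to 30.6 in intensity, and replicate arrays correlated at 0.992 to 0.993 across genes, which are not independent replicates. The sort markers followed the labels, with Cd24a at 11.74, 10.88 and 8.83 and Sirpa, which encodes CD172a, at 5.18, 10.14 and 10.19 in cDC1, CD24+CD172a+ and CD24-CD172a+ cDC2. Of 12 cDC1 markers, 12 fell in CD24+CD172a+ and 11 in CD24-CD172a+ cDC2 against cDC1. Of 12 cDC2 markers, 11 and 12 rose. Summed over 20 genes that mark monocytes and macrophages, the intensity was 4440 to 4963 on the CD24+CD172a+ arrays, 6851 to 6972 on the CD24-CD172a+ arrays and 6750 to 6849 on the cDC1 arrays. Of 11 NK cell and 10 T cell markers, 1 of each was higher in CD24-CD172a+ cDC2 than in cDC1 and the others were not called. Among all genes, 7.11% were called higher and 6.52% lower in CD24+CD172a+ cDC2 against cDC1, and 6.83% and 8.91% in CD24-CD172a+ cDC2. Between the cDC2 populations, 0.808% were called higher and 0.652% lower in CD24+CD172a+ cells. More calls were made among plasmacytoid, B cell and neutrophil markers. Of 12 plasmacytoid dendritic cell markers, 4 were higher in CD24+CD172a+ than in CD24-CD172a+ cDC2, while 5 rose and 2 fell in CD24+CD172a+ and 4 rose and 4 fell in CD24-CD172a+ cDC2 against cDC1. Of 11 B cell markers, 1 was lower in CD24+CD172a+ than in CD24-CD172a+ cDC2, while 4 rose and 2 fell in the former and 3 rose and 2 fell in the latter against cDC1. Of 12 neutrophil markers, 2 (S100a8 and S100a9) were higher in CD24+CD172a+ than in CD24-CD172a+ cDC2, and 3 and 2 rose against cDC1. The summed intensities in cDC1, CD24+CD172a+ and CD24-CD172a+ cDC2 were 953 to 1006, 1262 to 1339 and 1106 to 1123 for plasmacytoid, 369 to 409, 376 to 380 and 415 to 452 for B cell, and 240 to 243, 341 to 379 and 259 to 271 for neutrophil markers. Their part in the results on the 10 genes was not tested.

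Against cDC1, most of these proteases were higher in both cDC2 populations, while cystatin C and cathepsin E were lower. Of the 10 genes, 6 rose, 2 fell and 2 were not called in CD24+CD172a+ cDC2, where 13.6% of all genes were called (7.11% higher and 6.52% lower). The counts were equal in CD24-CD172a+ cDC2, where 15.7% of all genes were called (6.83% higher and 8.91% lower). The count of 6 higher in CD24+CD172a+ cDC2 was smaller in every fit that left out 1 of the 4 arrays compared. Those fits have larger standard errors, so a call could be lost while the difference stayed. Without CD24+CD172a+ replicate 2, for example, Ctsl differed by 0.65 ± 0.17, against 0.63 ± 0.13 with all arrays. The 6 differences stayed above 0 in all alternatives, from 0.38 (Ctss) to 1.41 (Ctsd). In CD24-CD172a+ cDC2 the count of higher genes was likewise smaller without any 1 of the 4 arrays compared. The 2 lower genes, Cst3 and Ctse, were called in all of these fits. The members are mostly bright, and among the 1994 brightest genes the shares called were 29.7% and 35.6%. The median size of the differences was 0.63 and 0.88, against 0.16 and 0.17 over all genes and 0.27 and 0.32 over those 1994. Both comparisons use the same cDC1 arrays, so they are not independent. The arrays of the groups did not overlap for 10 and 9 of the 10 genes, as for 52% and 52.4% of all genes.

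Between the cDC2 populations, by contrast, 1 of the 10 was called, Ctsl, where 1.46% of all genes were called (0.808% higher and 0.652% lower in CD24+CD172a+ cells). The groups did not overlap for 5 of the 10, against 44.2% of all genes. The median size of the 10 differences was 0.14, as over all genes.

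**Figure D1:**
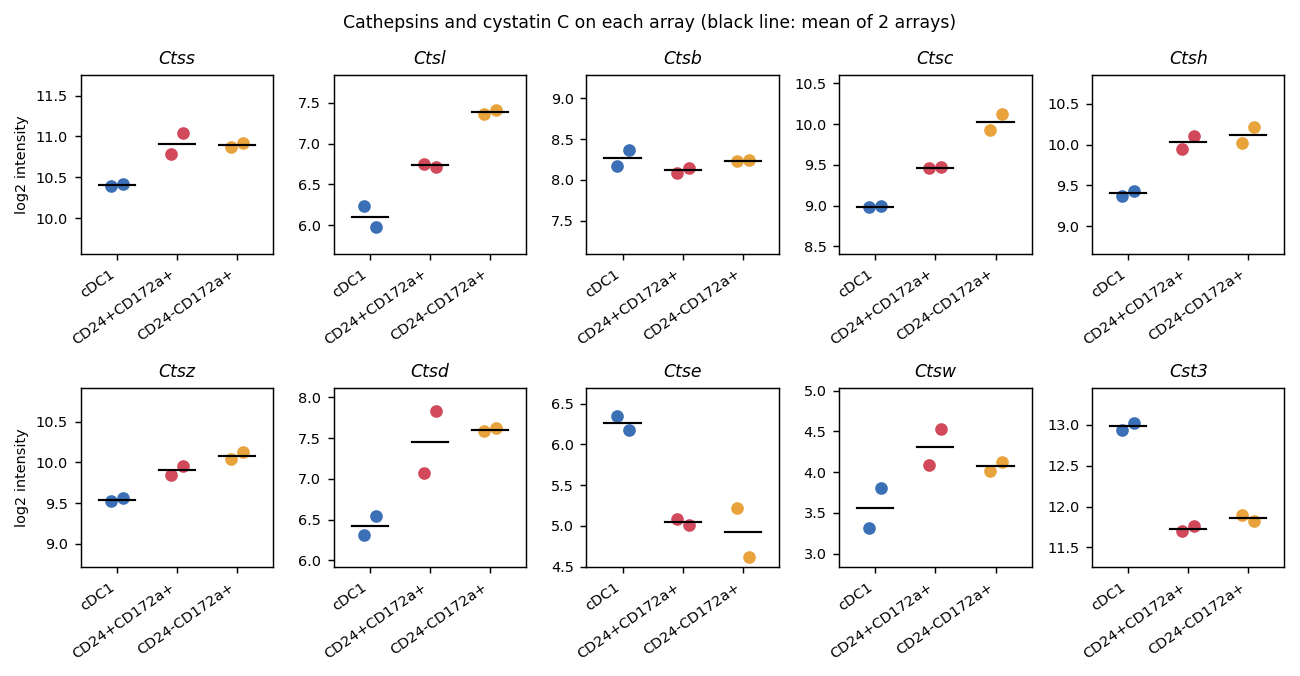
Log2 intensity of each gene on each of the 6 arrays (points, 2 per population), with the mean as a black line; every panel spans the same log2 range. Cst3 and Ctse are highest in cDC1, and Ctsb lies level, with means from 8.12 to 8.27. The arrays of Ctsl, Ctsc, Ctsz and Cst3 do not overlap between any groups. Between the cDC2 populations, the arrays of 44.2% of all genes did not overlap. Of the steps between the cDC2 populations, Ctsl alone was called, and that call was lost without any 1 array.

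Cystatin C, the inhibitor, showed one of the clearest patterns. Cst3 measured 12.93 and 13.03 on the cDC1 arrays, 11.69 and 11.76 on the CD24+CD172a+ arrays, and 11.89 and 11.83 on the CD24-CD172a+ arrays. Both cDC1 arrays thus lay more than 1 log2 unit above all 4 cDC2 arrays. Cst3 fell 2.38-fold in CD24+CD172a+ cDC2 (-1.25 ± 0.13, adjusted p = 5.69e-05) and 2.18-fold in CD24-CD172a+ cDC2 (-1.12 ± 0.13, adjusted p = 0.000131). The first of these was larger in size than the difference of 96.8% of all genes. Both calls held in all 17 alternative analyses, which include leaving out each array and testing against a 1.5-fold change. Between the cDC2 populations Cst3 differed by -0.13 ± 0.13 (adjusted p = 0.701), with a 95% interval from -0.41 to 0.15.

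Ctsl and Ctss encode cysteine endopeptidases, which cut within a protein chain, and the mean of each was lowest in cDC1. Cathepsin L processes antigen and, in the thymic cortex, the invariant chain. It measured 6.23 and 5.98 in cDC1, 6.75 and 6.71 in CD24+CD172a+ cDC2, and 7.36 and 7.42 in CD24-CD172a+ cDC2. No arrays of different groups overlapped. Ctsl rose by 1.28 ± 0.13 in CD24-CD172a+ cDC2 against cDC1 (2.43-fold, adjusted p = 8.41e-05), a call that held in all 17 alternatives. In CD24+CD172a+ cDC2 it rose by 0.63 ± 0.13 (1.55-fold, adjusted p = 0.00974). That call was lost without cDC1 replicate 2, CD24+CD172a+ replicate 1 or CD24+CD172a+ replicate 2 (adjusted p = 0.0951, 0.0703 and 0.0540).

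The step between the cDC2 populations was the less secure one. Ctsl was 1.57-fold lower in CD24+CD172a+ than in CD24-CD172a+ cDC2 (-0.66 ± 0.13, adjusted p = 0.0463), a difference larger in size than that of 98% of all genes. The call held in 6 of 17 alternatives, with a lowest adjusted p of 0.0238 (limma after cyclic loess). The test against a 1.5-fold change, which asks for a larger difference, did not call it. Leaving out either CD24+CD172a+ array ended it (adjusted p = 0.218 and 0.238), as did leaving out either CD24-CD172a+ array (adjusted p = 0.135 and 0.153) or either cDC1 array (adjusted p = 0.0590). The difference itself ranged only from -0.76 to -0.63 over the alternatives.

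Ctss, which encodes cathepsin S, measured 10.39 and 10.42 in cDC1, 10.79 and 11.04 in CD24+CD172a+ cDC2, and 10.87 and 10.92 in CD24-CD172a+ cDC2. All 4 cDC2 arrays lay above both cDC1 arrays, and the cDC2 groups overlapped. Ctss rose by 0.51 ± 0.13 in CD24+CD172a+ cDC2 (1.42-fold, adjusted p = 0.0295) and by 0.49 ± 0.13 in CD24-CD172a+ cDC2 (1.40-fold, adjusted p = 0.0316). The first call was lost without cDC1 replicate 1, cDC1 replicate 2 or CD24+CD172a+ replicate 2 (adjusted p = 0.139, 0.114 and 0.208). The second was lost without any 1 of the 4 arrays compared (adjusted p from 0.0867 to 0.147). The cDC2 populations differed by 0.02 ± 0.13 in Ctss (adjusted p = 0.973; 95% interval -0.28 to 0.32), the smallest size among the 10 genes in that comparison.

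Ctsb, which encodes cathepsin B, an enzyme that cuts within chains and also removes dipeptides from their end, was not called in any comparison. It measured 8.17 and 8.37 in cDC1, 8.08 and 8.15 in CD24+CD172a+ cDC2, and 8.23 and 8.25 in CD24-CD172a+ cDC2. Its differences from cDC1 were -0.15 ± 0.13 and -0.03 ± 0.13 (adjusted p = 0.584 and 0.928), with 95% intervals from -0.44 to 0.14 and from -0.32 to 0.26. The second turned to 0.0327 with quantile normalisation again and to 0.0628 with cyclic loess, and was not called in either.

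The exopeptidases trim residues from chain ends. Ctsc encodes cathepsin C, a dipeptidyl peptidase that activates granule serine proteases. It measured 8.98 and 8.99 in cDC1, 9.46 and 9.47 in CD24+CD172a+ cDC2, and 9.93 and 10.12 in CD24-CD172a+ cDC2, with no overlap between any groups. Ctsc rose by 1.04 ± 0.13 in CD24-CD172a+ cDC2 against cDC1 (2.06-fold, adjusted p = 0.000279), a call kept without each of the 4 arrays compared. In CD24+CD172a+ cDC2 it rose by 0.48 ± 0.13 (1.39-fold, adjusted p = 0.0330), a call lost without any 1 of the 4 arrays compared (adjusted p from 0.129 to 0.142). Between the cDC2 populations the difference was -0.56 ± 0.13 (adjusted p = 0.0685), not called. By limma it was called when only genes at or above the median gene were tested (adjusted p = 0.0354), with cyclic loess (adjusted p = 0.0449) and with an intensity trend (adjusted p = 0.0129). No other of the 17 alternatives called it.

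Ctsh encodes cathepsin H, an aminopeptidase. It measured 9.36 and 9.44 in cDC1, 9.95 and 10.10 in CD24+CD172a+ cDC2, and 10.02 and 10.21 in CD24-CD172a+ cDC2. The cDC2 groups overlapped, and both lay above cDC1. Ctsh rose by 0.63 ± 0.13 and 0.72 ± 0.13 (1.54-fold and 1.64-fold, adjusted p = 0.00974 and 0.00418). The first call was lost without cDC1 replicate 1 or CD24+CD172a+ replicate 2 (adjusted p = 0.0730 and 0.0878), and the second was kept without each of the 4 arrays compared. The cDC2 populations differed by -0.09 ± 0.13 (adjusted p = 0.816).

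Ctsz encodes cathepsin Z (also called X), a carboxypeptidase. It measured 9.52 and 9.56 in cDC1, 9.85 and 9.96 in CD24+CD172a+ cDC2, and 10.04 and 10.12 in CD24-CD172a+ cDC2, so that the arrays of the 3 groups did not overlap. It rose by 0.54 ± 0.13 in CD24-CD172a+ cDC2 (1.45-fold, adjusted p = 0.0141), a call lost without cDC1 replicate 1, cDC1 replicate 2 or CD24-CD172a+ replicate 2 (adjusted p = 0.0905, 0.0603 and 0.0687). In CD24+CD172a+ cDC2 it differed from cDC1 by 0.36 ± 0.13 (adjusted p = 0.0978), not called, and called in 3 of 17 alternatives. Its difference between the cDC2 populations, -0.18 ± 0.13, was not called (adjusted p = 0.570).

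The aspartic cathepsins D and E, which cystatins do not block, went opposite ways. Ctsd measured 6.31 and 6.55 in cDC1, 7.07 and 7.83 in CD24+CD172a+ cDC2, and 7.59 and 7.62 in CD24-CD172a+ cDC2. Every cDC2 array lay above both cDC1 arrays, and the CD24+CD172a+ arrays stood far apart from each other, on either side of the CD24-CD172a+ pair. Ctsd, the lysosomal enzyme, rose by 1.03 ± 0.21 in CD24+CD172a+ cDC2 (2.04-fold, adjusted p = 0.00839) and by 1.18 ± 0.21 in CD24-CD172a+ cDC2 (2.26-fold, adjusted p = 0.00343). Without CD24+CD172a+ replicate 2 the first difference was 0.64 and not called (adjusted p = 0.0534), and without cDC1 replicate 1 it was 0.91 (adjusted p = 0.0728). The second was kept without each of the 4 arrays compared. Between the cDC2 populations Ctsd differed by -0.15 ± 0.21 (adjusted p = 0.803), which turned to 0.23 without CD24+CD172a+ replicate 1.

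Ctse encodes cathepsin E, an endosomal relative of cathepsin D. It measured 6.35 and 6.18 in cDC1, 5.09 and 5.02 in CD24+CD172a+ cDC2, and 5.22 and 4.62 in CD24-CD172a+ cDC2. Both cDC1 arrays lay above all 4 cDC2 arrays. Ctse fell 2.32-fold in CD24+CD172a+ cDC2 (-1.21 ± 0.18, adjusted p = 0.00115) and 2.54-fold in CD24-CD172a+ cDC2 (-1.34 ± 0.18, adjusted p = 0.000538). Both calls were kept without each of the 4 arrays compared. The cDC2 populations differed by 0.13 ± 0.18 (adjusted p = 0.80), which turned to -0.17 without CD24-CD172a+ replicate 2.

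Ctsw, which encodes cathepsin W, a protease known from NK cells and CD8 T cells, was the dimmest of the 10 probe sets. It measured 3.31 and 3.81 in cDC1, 4.09 and 4.53 in CD24+CD172a+ cDC2, and 4.02 and 4.13 in CD24-CD172a+ cDC2. Its cDC1 values lay below the 25th percentile of gene means (3.94) (signal over background was not examined). Ctsw rose by 0.75 ± 0.19 in CD24+CD172a+ cDC2 (1.68-fold, adjusted p = 0.0252), a call lost without cDC1 replicate 1 or CD24+CD172a+ replicate 2 (adjusted p = 0.210 and 0.213). In CD24-CD172a+ cDC2 it differed by 0.51 ± 0.19 (adjusted p = 0.109), not called, but called without cDC1 replicate 2 (adjusted p = 0.0418). The summed intensity of 11 NK cell markers was 210 to 220 in cDC1, 220 to 223 in CD24+CD172a+ cDC2 and 236 to 244 in CD24-CD172a+ cDC2, and their part in the Ctsw values was not tested.

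**Figure D2:**
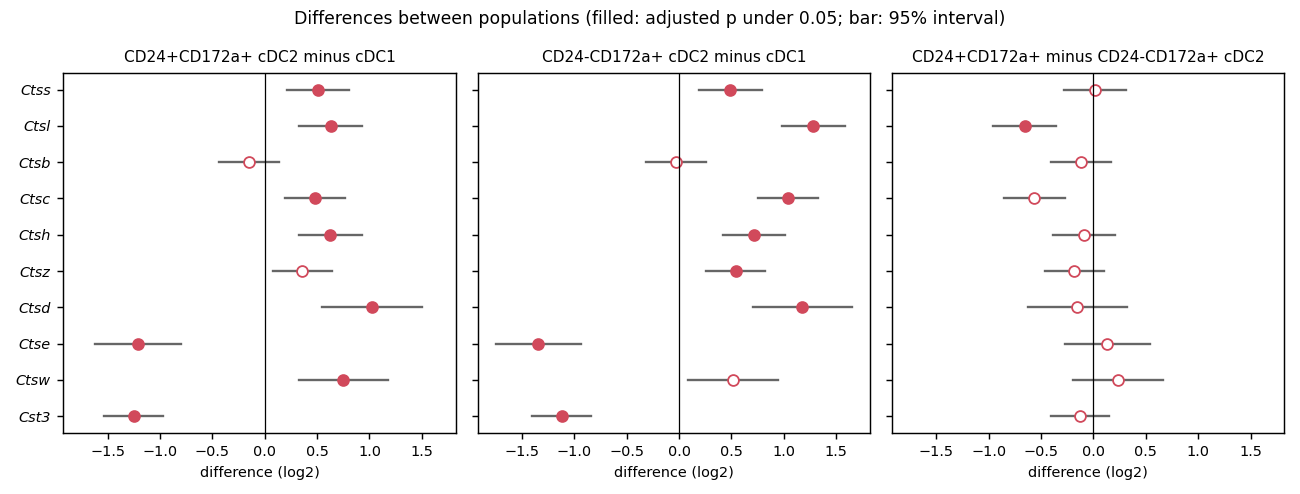
Difference of each gene (x axis, log2) in the 3 comparisons, with its 95% interval from limma as a bar; filled points have an adjusted p under 0.05. The filled points number 8 of 10 in each comparison with cDC1 and 1 of 10 (Ctsl) between the cDC2 populations. Over all genes, 13.6% were called in CD24+CD172a+ and 15.7% in CD24-CD172a+ cDC2 against cDC1, and 1.46% between the cDC2 populations. The Ctsl call between the cDC2 populations held in 6 of 17 alternatives.

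The differences of largest size among the 10 genes between the cDC2 populations were those of Ctsl (-0.66 ± 0.13, adjusted p = 0.0463, a call lost without any 1 of the 4 arrays compared) and Ctsc (-0.56 ± 0.13, adjusted p = 0.0685, not called). Among the 20 genes that mark monocytes and macrophages, 7 fell in CD24+CD172a+ compared with CD24-CD172a+ cDC2 and 13 were not called. Of all genes, 0.652% were called lower in that comparison. In cDC1, CD24+CD172a+ and CD24-CD172a+ cDC2, Adgre1, which encodes the macrophage antigen F4/80, was at 4.17, 7.77 and 8.89, and Spic, a regulator of red pulp macrophages, at 7.84, 6.73 and 8.29. C1qa, a complement gene of macrophages, was at 4.13, 4.34 and 5.22. Marco, a marginal zone macrophage receptor, lay at 4.42 to 4.56 and Cd5l at 3.81 to 4.11 over the 3 groups. The part of these markers in the Ctsl and Ctsc values was not tested. Against cDC1, 3 of the 20 rose and 5 fell in CD24+CD172a+ cDC2, where 7.11% of all genes were called higher and 6.52% lower. In CD24-CD172a+ cDC2, 6 rose and 3 fell, where the shares of all genes were 6.83% and 8.91%.

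Of 18 other cystatins measured, 1 rose and 1 fell in each cDC2 population against cDC1, a share near the 13.6% and 15.7% of all genes. The gene that rose was Cst7, which encodes cystatin F, an inhibitor that acts inside the lysosomes of immune cells and targets cathepsin C among others. Cst7 measured 4.99 and 4.53 in cDC1, 7.50 and 7.53 in CD24+CD172a+ cDC2, and 6.57 and 6.58 in CD24-CD172a+ cDC2. The 3 groups lay well apart, with CD24+CD172a+ cDC2 highest. Cst7 rose 6.74-fold in CD24+CD172a+ (2.75 ± 0.16, adjusted p = 9.61e-07) and 3.52-fold in CD24-CD172a+ cDC2 (1.81 ± 0.16, adjusted p = 2.05e-05), calls that held in all 17 alternatives. It was the 1 cystatin called between the cDC2 populations, where it was higher in CD24+CD172a+ cells by 0.94 ± 0.16 (adjusted p = 0.0214). That call was lost without any 1 of the 4 arrays compared (adjusted p from 0.0921 to 0.158), while the difference stayed between 0.92 and 0.95 in those fits. Cst3 and Cst7 thus differed from cDC1 in opposite directions in both cDC2 populations.

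The gene that fell was Stfa2, a stefin (-0.58 ± 0.17 and -0.81 ± 0.17). Its probe set lay below the 25th percentile of gene means in every group (2.64 to 3.45). The first call was lost without cDC1 replicate 1 or either CD24+CD172a+ array, and when only the 2 groups were compared. The second was lost without cDC1 replicate 1. Cstb, which encodes the cytosolic stefin B, was at 9.89 ± 0.04, 9.52 ± 0.16 and 10.08 ± 0.15 in cDC1, CD24+CD172a+ and CD24-CD172a+ cDC2 and was not called.

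Of 7 other cathepsins and papain-family genes, 1 rose in CD24+CD172a+ and 2 in CD24-CD172a+ cDC2, where 13.6% and 15.7% of all genes were called. Ctsa, which encodes the serine carboxypeptidase cathepsin A, measured 8.27 and 8.49 in cDC1 against 9.92 to 10.15 on the 4 cDC2 arrays, and rose by 1.66 ± 0.14 and 1.59 ± 0.14 (adjusted p = 1.72e-05 and 2.33e-05). Ctso rose by 0.69 ± 0.16 in CD24-CD172a+ cDC2 (adjusted p = 0.0151), a call lost without cDC1 replicate 1 and without either CD24-CD172a+ array. Of 7 mouse placental cathepsins, relatives of cathepsin L that lie in a cluster beside it, none was called in any comparison by limma. Among 13 granule serine proteases and perforin, which include substrates of cathepsin C, none was called in any comparison either. At an unadjusted p under 0.05, limma counted 0, 0 and 1 of the placental cathepsins and 1, 1 and 2 of the granule genes between the cDC2 populations, in CD24+CD172a+ and in CD24-CD172a+ cDC2 against cDC1.

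Other lysosomal proteases also differed from cDC1. Of 8 genes measured, among them the thiol reductase Ifi30, 4 rose and 2 fell in CD24+CD172a+, and 5 rose and 2 fell in CD24-CD172a+ cDC2. Over all genes, 7.11% were called higher and 6.52% lower in the former, and 6.83% and 8.91% in the latter. Lgmn, which encodes legumain, a cysteine endopeptidase that helps to mature cathepsins and that cystatin C also inhibits, rose 4.35-fold and 4.44-fold (2.12 ± 0.14 and 2.15 ± 0.14). The largest decrease was in Cpq, a carboxypeptidase (-2.32 ± 0.20 and -2.39 ± 0.20). Dpp7, a dipeptidyl peptidase, also fell (-0.79 ± 0.15 and -0.77 ± 0.15), and Tpp1, a tripeptidyl peptidase, rose by 0.86 ± 0.17 and 0.76 ± 0.17. Lgmn and Cpq kept both calls without each array compared. Dpp7 lost both without cDC1 replicate 1 and the first without CD24+CD172a+ replicate 2. Tpp1 lost both without cDC1 replicate 1, the first without CD24+CD172a+ replicate 2 and the second without CD24-CD172a+ replicate 2. None of the 8 was called by limma between the cDC2 populations, nor had any an unadjusted p under 0.05 there.

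Of 11 genes that carry or accompany lysosomal enzymes, 5 fell in CD24+CD172a+ and 4 in CD24-CD172a+ cDC2, where 6.52% and 8.91% of all genes were called lower. None was called higher by limma or had a positive difference with an unadjusted p under 0.05. Igf2r, the large mannose 6-phosphate receptor, measured 6.50 and 6.22 in cDC1 and 3.89 to 4.25 in cDC2, and fell by more than any other gene of the list (-2.16 ± 0.16 and -2.29 ± 0.16). Its cDC2 values lie near the 25th percentile of gene means. Psap, which encodes the saposin precursor, fell (-1.88 ± 0.15 and -1.56 ± 0.15), as did Grn, the progranulin gene (-1.18 ± 0.15 and -1.08 ± 0.15). These 3 kept both calls without each array compared. Vps29, a retromer subunit, fell (-0.68 ± 0.13 and -0.56 ± 0.13), calls lost without CD24+CD172a+ replicate 2 for the first, and without cDC1 replicate 1, cDC1 replicate 2 or CD24-CD172a+ replicate 2 for the second.

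Of 8 regulators of lysosomal genes, 1 fell in CD24+CD172a+, and 1 rose and 1 fell in CD24-CD172a+ cDC2, where 13.6% and 15.7% of all genes were called. Mtor fell in both cDC2 populations (-0.52 ± 0.13 and -0.56 ± 0.13). Tfeb rose in CD24-CD172a+ cDC2 (0.69 ± 0.18, adjusted p = 0.0249), a call lost without any 1 of the 4 arrays compared. Mtor lost the first call without cDC1 replicate 1 or either CD24+CD172a+ array and the second without cDC1 replicate 1 or CD24-CD172a+ replicate 2. Of 10 genes of the MHC class II pathway, 1 rose and 1 fell in CD24+CD172a+, and 1 rose and 2 fell in CD24-CD172a+ cDC2. These lay between the shares called over all genes (13.6% and 15.7%) and among the 1994 brightest genes (29.7% and 35.6%). Marchf1, a ubiquitin ligase that removes MHC class II from the surface, fell (-0.85 ± 0.15 and -0.75 ± 0.15), the second call being lost without cDC1 replicate 1. H2-Oa, a chain of the modulator H2-O, rose by 0.48 ± 0.13 and 0.44 ± 0.13, calls lost without any 1 of the arrays compared. H2-DMa, a chain of the peptide editor H2-DM, fell in CD24-CD172a+ cDC2 (-0.53 ± 0.15, adjusted p = 0.0358), a call lost with cyclic loess and without either cDC1 array or CD24-CD172a+ replicate 2. Cd74, which encodes the invariant chain, was at 12.49, 12.47 and 12.45 in cDC1, CD24+CD172a+ and CD24-CD172a+ cDC2, and differed from cDC1 by -0.01 and -0.03 (adjusted p = 0.968 and 0.917).

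**Figure D3:**
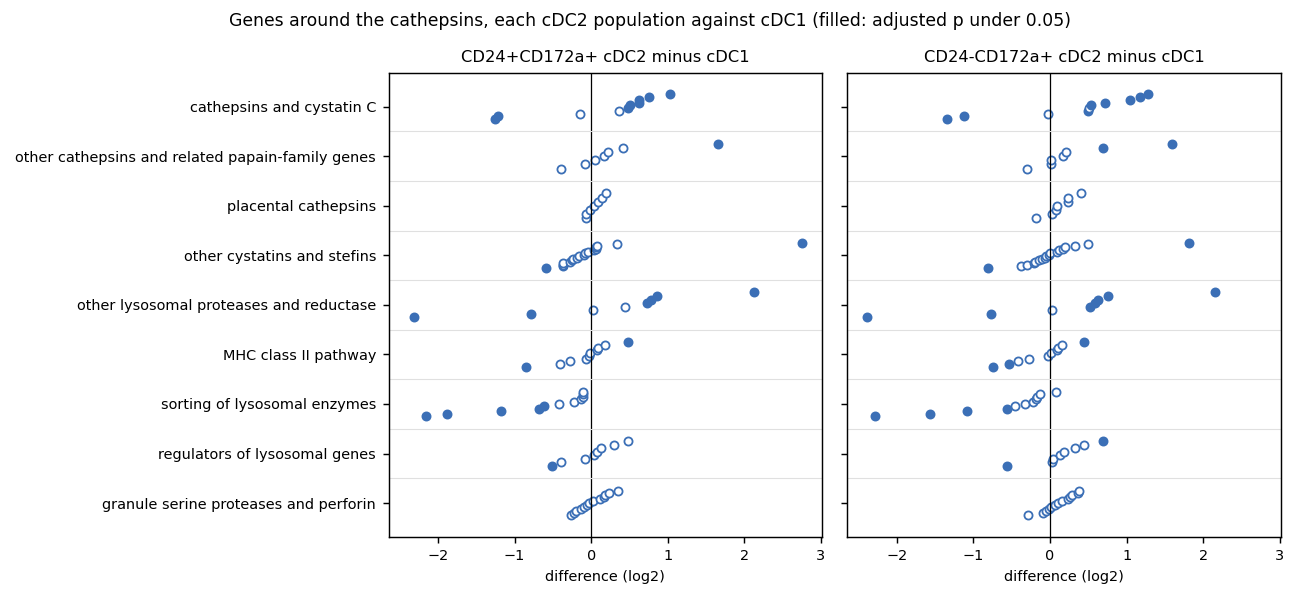
Difference from cDC1 (x axis, log2) of every measured gene in the 10-gene set and in 8 lists of related genes, in CD24+CD172a+ (left) and CD24-CD172a+ cDC2 (right); filled points have an adjusted p under 0.05. The genes farthest from 0 are Cst7 and Lgmn on the right and Cpq and Igf2r on the left of each panel.

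For the 5 genes whose group means spanned at least 1 log2 unit, the genes nearest in pattern were found by the distance between log2 values over the 6 arrays, each gene centred on its own mean, among genes at or above the median level. Nearest to Cst3 was Npc2, a lysosomal cholesterol carrier (distance 0.15), followed by P4hb (0.17) and Habp4 (0.18). Nearest to Ctsl were Zfp831 (0.25), Ggh, a lysosomal hydrolase of folate chains (0.25), and Csf3r (0.26). Ctsc was nearest to Slc6a12, Pcgf5 and Ing3 (0.20 to 0.24), and Ctse to Tlnrd1, Cpd and Dennd1b (0.17 to 0.29). Ctsd was nearest to Mideas, Smad7 and Rac2, at the larger distances of 0.33 to 0.34. The points share arrays and only 3 populations, so likeness here describes these arrays.

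**Figure D4:**
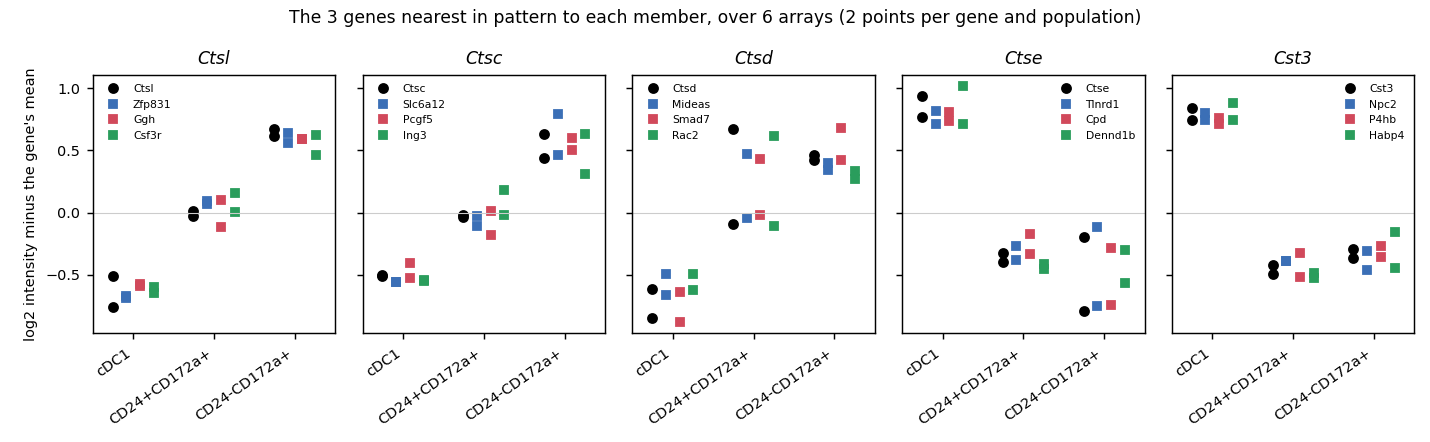
Log2 intensity minus each gene's mean over the 6 arrays (y axis) for 5 members (black circles) and their 3 nearest genes (coloured squares), with 2 arrays per population. Cst3 and Ctse are higher on both cDC1 arrays than on the 4 cDC2 arrays. The means of Ctsl (6.10, 6.73 and 7.39) and Ctsc (8.99, 9.46 and 10.03) differ in order of cDC1, CD24+CD172a+ and CD24-CD172a+ cDC2. The step between the cDC2 populations was not called for Ctsc, and for Ctsl its call was lost without any 1 of the 4 arrays compared.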

How the data were processed

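RNA from sorted spleen dendritic cells was measured on 6 Affymetrix arrays, 2 per group, after amplification with a kit for picogram inputs, per the labels' protocols. The deposited values are intensities on a linear scale, made by the authors with Affymetrix Expression Console and RMA, per the submitters' processing notes. RMA corrects background, equalises array distributions and summarises probes, so a shift common to most genes would not be seen. The array number limits the precision, and no scanner values or detection calls were used here.

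Of 28853 probe sets, 21789 had 1 gene symbol, 1621 several and 5443 none, from GEO's platform annotation; 21698 of the first matched the RefSeq gene table by gene ID. The probe set with the highest mean was kept for each of 999 genes with several, leaving 19938 genes. Log2 values were fitted with limma 3.58.1 (R 4.3.3; lmFit and eBayes without trend, all 6 arrays, 1 term for the group), and the script was tested on simulated data. Intervals are 95% intervals from the same fit. Members, gene lists and tests were chosen with earlier results of these data known. Besides the members, the called genes of each related list were named, at most the 4 with the largest difference, and the 3 genes nearest in pattern; levels of uncalled Cstb and Cd74 and of some markers were singled out after their values were seen. The alternatives were another filter, probe set rule, scaling, variance model, weighting, sample set, fold threshold and replicate block, and leaving out each array. In each comparison, leaving out an array of the group not compared repeats the fit with only the 2 groups compared. The 17 alternatives are therefore not all distinct. Deviations of same-numbered arrays correlated weakly and positively (0.0837, 0.0242 and 0.0838). The labels name no pairing, and the main fit took none. With the replicate number as a block, more genes were called in each comparison. The counts were 411 against 291 between the cDC2 populations. Against cDC1 they were 2918 against 2718 in CD24+CD172a+ and 3323 against 3137 in CD24-CD172a+ cDC2, so a shared replicate component is not excluded.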

Additional observations from a re-analysis of the deposited data

How the results depend on the processing

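The 17 alternatives moved the small comparison between the cDC2 populations most. There 291 genes (161 higher and 130 lower in CD24+CD172a+ cells) and 1 of the 10 genes were called, against 437 genes and 2 members when only genes at or above the median were tested, 464 and 2 with an intensity trend and robust variance, 187 and 0 with only the 2 groups compared, and 8 and 0 against a 1.5-fold change. Members called were 0 with all probe sets, median centring or array weights, and 2 with cyclic loess. The split of higher and lower genes turned to 126 and 160 with cyclic loess and 119 and 137 with quantile normalisation again. Against a 1.5-fold change, 715 genes and 1 member were called in CD24+CD172a+ and 728 genes and 3 members in CD24-CD172a+ cDC2 against cDC1. Cyclic loess turned the split in the latter from 1361 higher and 1776 lower to 1560 and 1472. Leaving out 1 array, with the lone array of its group assumed to vary like the other groups, gave 20 to 187 genes and 0 members between the cDC2 populations, 1781 to 2769 genes and 2 to 8 members in CD24+CD172a+ cDC2 against cDC1, and 1922 to 2839 genes and 6 to 8 members in CD24-CD172a+ cDC2 against cDC1. Leaving out either array of the group not compared gave the same values as fitting only the 2 groups compared. The highest gene counts of the ranges come from that fit. The cause of these changes was not tested.

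Signs turned in differences that were not called. Between the cDC2 populations, leaving out 1 array took Ctsd from -0.53 to 0.23 (the highest without CD24+CD172a+ replicate 1), Ctss from -0.11 to 0.14 (below 0 without CD24+CD172a+ replicate 2 and, at -0.00465, CD24-CD172a+ replicate 1), and Ctse from -0.17 to 0.43 and Ctsh from -0.19 to 0.00559 (both turned without CD24-CD172a+ replicate 2). Ctsb in CD24-CD172a+ cDC2 against cDC1 turned to 0.0327 with quantile normalisation again and 0.0628 with cyclic loess, and ran from -0.13 to 0.0693 with 1 array left out (turned without cDC1 replicate 2).

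With the replicate block, 411, 2918 and 3323 genes and 1, 8 and 9 members were called between the cDC2 populations, in CD24+CD172a+ and in CD24-CD172a+ cDC2 against cDC1. The added member was Ctsw (adjusted p = 0.0306). Alternatives of background correction, slide and scan date were not run, since they need scanner values, and 2 arrays per group limit every call.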
